A study of Piaractus mesopotamicus with 9 samples.

Results

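Myotubes of pacu (Piaractus mesopotamicus), a South American food fish, were given amino acids back after a period without them, and their mature miRNAs were compared with those of myotubes that stayed without amino acids. The myotubes had been differentiated to day 8 in primary culture from myoblasts of fast-twitch muscle of juveniles, with several fish pooled. The 3 AA libraries came from myotubes kept 12 h in amino acid-free medium and then 24 h in DMEM, a complete medium that holds amino acids. The 3 IGF1 libraries, which entered the count minimum and the fit of the spread and are otherwise set beside AA, came from myotubes kept 12 h without amino acids and then 24 h in amino acid-free medium with recombinant IGF1, the insulin-like growth factor that activates muscle protein synthesis. The 3 CTR libraries came from myotubes kept 36 h in amino acid-free medium made of Earle's salts, vitamins and glucose. The sample characteristics list 12 h for AA and IGF1 and 36 h for CTR. These equal the hours that the protocol gives for amino acid-free medium without a supplement. The 24 h of supplement is given by the protocol and by the paper's methods. AA and CTR differ in the base medium as well as in amino acids, and these cannot be told apart. The methods speak of 3 independent cell cultures without saying which library came from which. Unless a fit without the block is named, the p-values below measure the spread left between these libraries after differences between replicate numbers are removed. Libraries are named by group and replicate number (AA-1 to CTR-3).

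The deposited table held 3579 entries, each a mature miRNA of 1 of 13 teleost species. Many entries of different species held the same counts, so those equal in each of the 9 libraries were merged, and a merged entry is called a profile. Of 1238 profiles with any count, 953 had a mean count of at least 10 and were compared, and 938 of these lie outside the muscle-specific families. The other profiles, below that minimum, held 0.00134% of the counts. The species prefix of a name (dre for zebrafish, ssa for Atlantic salmon, gmo for Atlantic cod, ola for medaka, ipu for channel catfish, ccr for common carp, abu and mze for cichlids) says which catalogue entry the reads matched, not which species they came from. A family here is all profiles with the same miRNA number, and 118 families had a profile among the 953 compared.

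A miRNA is cut from a hairpin whose left and right strands are named 5p and 3p. One strand usually enters an Argonaute protein as the guide, pairs with target mRNAs and lowers their translation and stability, while the other is mostly degraded and is found at a far lower level. In skeletal muscle, miR-206, miR-1, miR-133 and miR-499 are made almost only in muscle cells and rise as myoblasts fuse, whereas most other miRNAs of a myotube are shared with many cell types. Amino acids signal in muscle through the TOR kinase, which drives protein synthesis.

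Total counts over all entries were 103334183 to 119343474 in the AA libraries, 113910433 to 137767439 in the IGF1 libraries and 81685427 to 129187426 in the CTR libraries. These totals exceed the reads, since entries of different species held the same counts. Zebrafish entries alone held 9628698 to 11198743 in AA, 10628865 to 12908097 in IGF1 and 7627252 to 12074547 in CTR. All 4 muscle-specific miRNAs were present in every library. Summed over zebrafish entries, these 4 stood at 15945 to 28777 normalised counts in AA and 4743 to 7501 in CTR, where a normalised count is the deposited count divided by the authors' library size factor. The markers of other cell types were present beside them: cartilage miR-140 and miR-455 at 29899 to 33703 in AA and 30403 to 33512 in CTR, smooth muscle miR-143 and miR-145 at 51835 to 64362 in AA and 47430 to 73375 in CTR, and endothelial miR-126 at 1421 to 1990 in AA and 1463 to 1750 in CTR. The blood list stood at 50.3 to 161 in AA and 49.7 to 106.5 in CTR, with miR-144 and miR-223 not among the tested profiles. No profile of these other lists, or of the neural, epithelial and liver lists, passed the test between AA and CTR. In RNA from whole cultures, fewer cells of a type and less of a miRNA per cell cannot be told apart.

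A small part of the miRNA profiles differed between AA and CTR, and most of these were higher in AA. By edgeR's quasi-likelihood test, with the replicate number as a block, 31 of 953 profiles (3.25%) passed an adjusted p of 0.05 or less (Benjamini-Hochberg over all 953) together with a change of at least 0.55 on the log2 scale. Of these, 28 were higher in AA (2.94%) and 3 were lower (0.315%). An adjusted p of 0.05 or less alone was reached by 3.67% of the profiles, and an unadjusted p under 0.05 by 19.5%. The 31 calls came from 14 of the 118 families. The muscle-specific families gave 14 of the calls, and 17 of the 938 other profiles (1.81%) gave the rest, 14 higher and 3 lower in AA. With no composition factors in the scaling, that split was 26 higher and 2 lower. Outside the muscle-specific families the calls fell in miR-551, miR-33, miR-125, miR-21, let-7, miR-181 and miR-26, whose called profiles were higher, and in miR-29, miR-204 and miR-365, whose called profiles were lower. In 16 of the 17 the AA and CTR libraries did not overlap, against 11.9% of all profiles tested, and in all 17 the difference had the same sign in each of the 3 numbered pairs of libraries. Of all profiles tested, 15.7% were higher and 23.7% lower in AA in all 3 pairs. The 17 were called by a test of these same libraries, blocked on those pairs, so neither the overlap nor the sign is separate support for them. The median change over all 953 profiles was -0.02, with quartiles of -0.11 and 0.13.

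**Figure D1:**
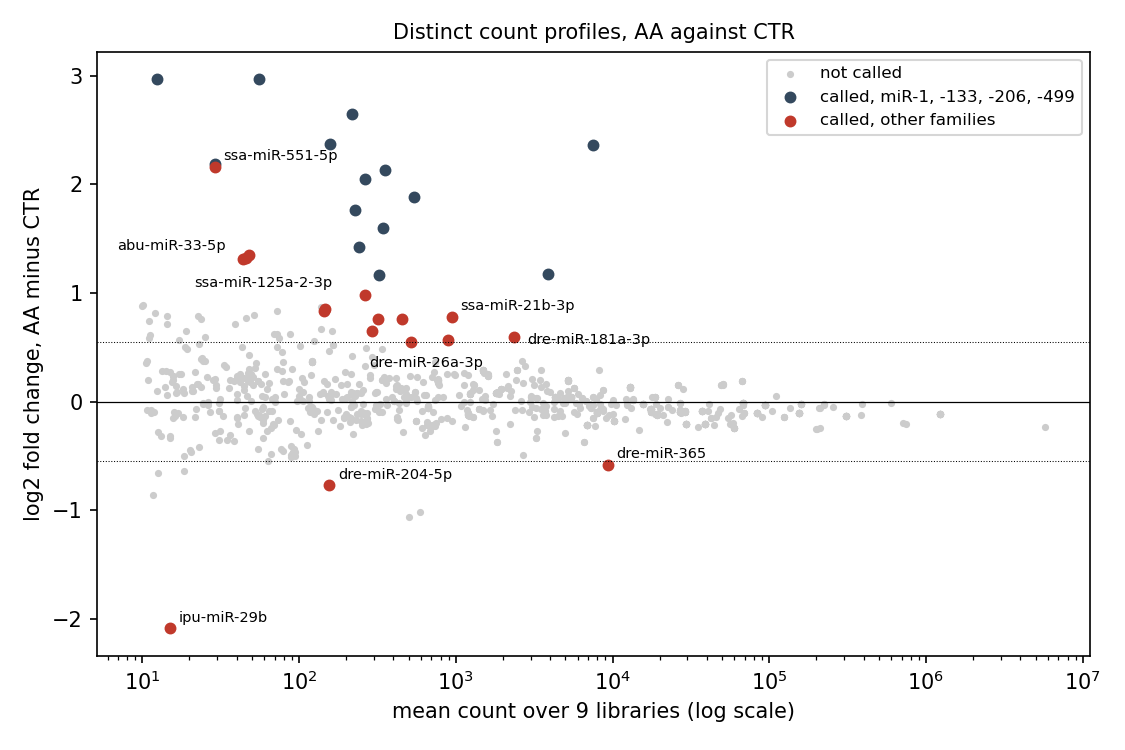
Log2 fold change of AA over CTR (vertical axis) against the mean count over the 9 libraries (horizontal axis, log scale) for 953 profiles, with dotted lines at the fold threshold of 0.55. The called profiles of the muscle-specific families lie mostly highest, the called profiles of other families lie mostly below a mean count of 1000, and the most abundant profiles sit close to 0.

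These 17 calls rested on few libraries. Without the replicate block the count was 9, with only the AA and CTR libraries fitted it was 12, with CTR-1 left out the count was 5, with CTR-2 left out 7, with AA-3 left out 8, and with AA-2 left out 26. The fit of only the AA and CTR libraries lost dre-miR-125b-2-3p (adjusted p = 0.0712), dre-miR-181a-5-3p (0.0651), dre-miR-26a-3p (0.0633), dre-miR-204-5p (0.0519) and gmo-let-7a-3-3p (0.0503). These come besides the losses listed for each profile below. The profiles ssa-miR-551-5p, ssa-miR-125a-2-3p, ssa-miR-21b-3p and dre-miR-181a-3p were called in all 9 fits that left out a library and also without the block.

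In miR-551 and miR-33 the summed counts of the family were higher in AA. The 5p strand of miR-551, ssa-miR-551-5p, had 61.0, 43.9 and 41.2 normalised counts in AA, against 12.5, 7.37 and 14.4 in CTR. Its libraries did not overlap, and it had the largest rise outside the muscle-specific families, 4.48-fold (log2 2.16, SE 0.29, adjusted p = 0.000784). The more abundant strand, listed as ccr-miR-551 together with ssa-miR-551-3p, had 233, 102 and 188 normalised counts in AA and 171, 71.9 and 53.3 in CTR, groups that overlap, and its difference of 0.87 was not called (adjusted p = 0.0607). The remaining miR-551 profile had a difference of 0.30 and was not called either. The counts of all miR-551 profiles summed were 0.93 higher on the log2 scale (SE 0.18, adjusted p = 0.000123 over 121 families), and this call was lost without the block (adjusted p = 0.773). Family sums were tested with a spread largely shared across families, so their SE and p do not rest on the family's own libraries alone. Of the counts summed over all 1238 profiles, miR-551 took 0.00129%, 0.000475% and 0.000834% in AA and 0.00083%, 0.00031% and 0.000254% in CTR, groups that overlap.

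miR-33 in mammals lies in introns of the SREBF genes, which encode the main transcription factors of sterol and fatty acid synthesis, and it represses the cholesterol exporter ABCA1. The profile abu-miR-33-5p had 84.5, 38.5 and 59.6 normalised counts in AA, against 27.9, 24.9 and 18.7 in CTR. The groups did not overlap, with the pair AA-2 and CTR-2 giving the smallest gap. The rise was 2.50-fold (log2 1.32, SE 0.25, adjusted p = 0.00922), and gmo-miR-33b-5p, which took almost the same counts, was 1.31 higher. For abu-miR-33-5p the call was lost without CTR-1, AA-1 or AA-3 (adjusted p 0.0552 to 0.103) and without the block (0.0968). Of the 3p profiles, the more abundant mze-miR-33a had a difference of 0.63 (adjusted p = 0.0680) and the rare ssa-miR-33b-3p one of -0.11, and neither was called. The summed counts of miR-33 were 1.00 higher (SE 0.17, adjusted p = 2.24e-05), a call lost only without the block (0.107) among the alternatives run on family sums. The 5p near-copies, with mean counts of 45.9 and 44.0, both enter this sum, whose mean was 191. It therefore gives the called 5p strand extra weight and is not separate support for it.

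**Figure D2:**
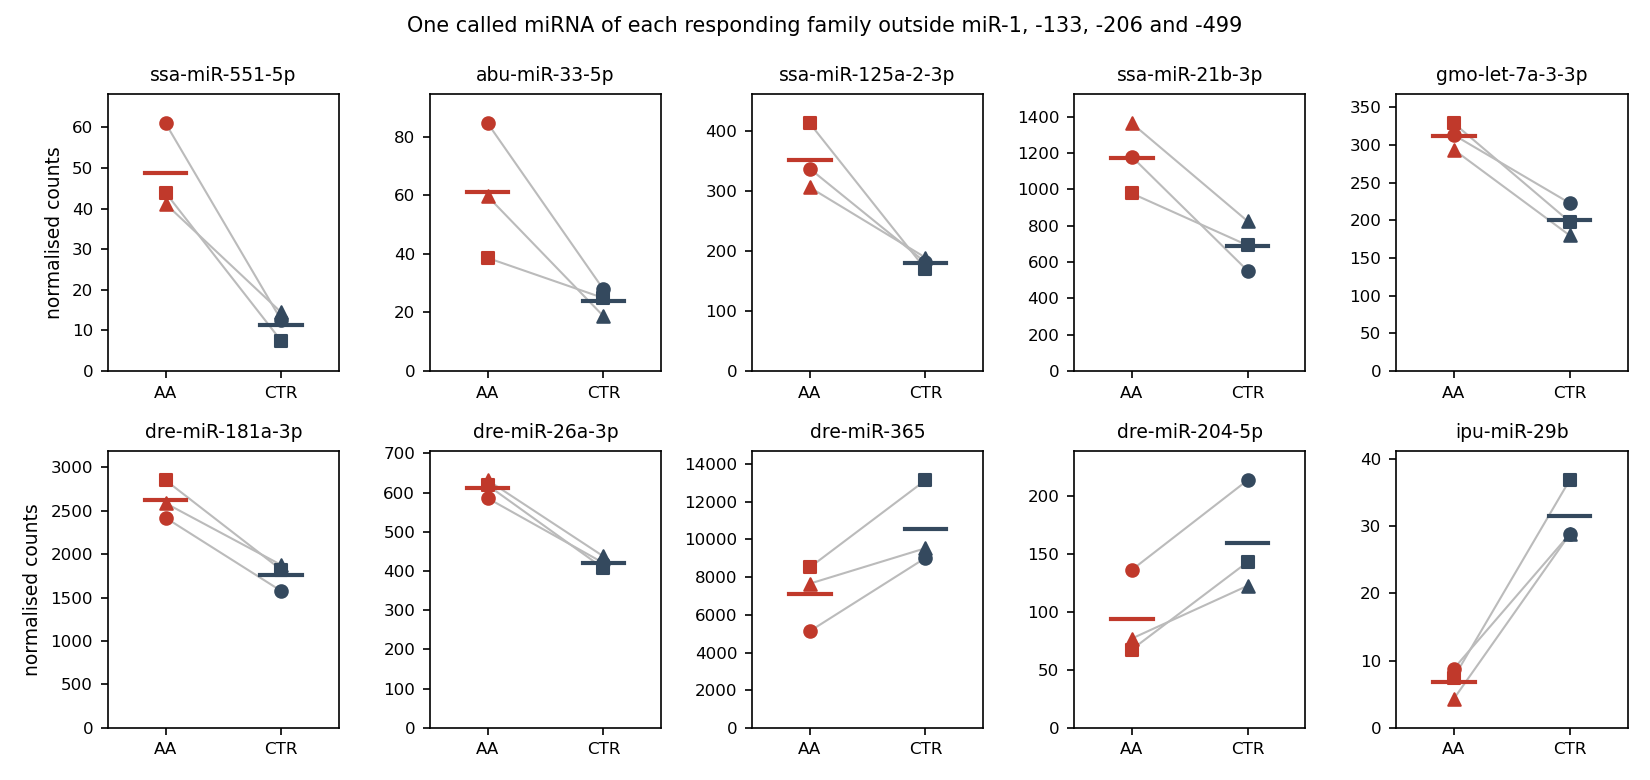
Normalised counts (vertical axes, from 0) in the 3 AA (left) and 3 CTR (right) libraries for 1 called profile of each of the 10 families outside the muscle-specific ones. Marker shapes give the replicate number, grey lines join equal numbers and bars are means, and every line runs the same way within a panel, with only dre-miR-204-5p showing overlap between the groups.

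In a second group of families the summed counts were not called. As with ssa-miR-551-5p, the called profiles were of the strand with fewer counts and were higher in AA, while the abundant strand was not called. In miR-125, which in mouse myoblasts represses Igf2 and falls during differentiation, 5 of 12 profiles were called, all of them higher in AA. The profile ssa-miR-125a-2-3p had 337, 412 and 306 normalised counts in AA, against 180.6, 170 and 189 in CTR. Every AA library lay above every CTR library, and the rise was 1.98-fold (log2 0.98, SE 0.14, adjusted p = 0.00157). Its relative ssa-miR-125a-3p had 395, 450.8 and 390 in AA and 209, 256 and 279 in CTR, a rise of 0.76 (SE 0.14, adjusted p = 0.00719) that was lost without CTR-1 or CTR-2 (0.0587 to 0.0630).

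The 3p strands of miR-125b followed. dre-miR-125b-2-3p had 80.9, 78.2 and 65.0 normalised counts in AA and 17.3, 27.6 and 50.4 in CTR, with no overlap and CTR-3 well above the other CTR libraries. Its rise of 1.35 (SE 0.29, adjusted p = 0.0218) was lost without CTR-1, CTR-2 or AA-1 (0.0869 to 0.204) and without the block (0.0678). dre-miR-125b-1-3p had 149, 171 and 177 in AA and 84.5, 91.2 and 106.5 in CTR, with no overlap and a rise of 0.83 (SE 0.17, adjusted p = 0.0133), which was lost without CTR-1, CTR-2 or AA-3 (0.0889 to 0.11). The fifth call, mze-miR-125c, took nearly the same counts as dre-miR-125b-1-3p and is not a separate observation. By contrast dre-miR-125b-5p, the abundant guide, had 156960, 200599 and 174007 normalised counts in AA and 201789, 233041 and 202049 in CTR. Its difference of -0.25 (SE 0.06, adjusted p = 0.0270) passed the p threshold but was smaller than the fold asked for. The 7 uncalled profiles of miR-125 ranged from -0.26 to 0.09, among them the 3p entries gmo-miR-125a-3p (0.09) and ssa-miR-125b-2-3p (-0.07), and the summed counts had a difference of -0.15 (SE 0.08, adjusted p = 0.291).

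miR-21, a miRNA of many growing cells, was represented by dre-miR-21, the most abundant profile of all. Its low 3p strand ssa-miR-21b-3p had 1180, 978 and 1364 normalised counts in AA, against 552, 692 and 825 in CTR. No AA library fell within the CTR range, and the rise was 1.72-fold (log2 0.78, SE 0.13, adjusted p = 0.00467). A second 3p form, gmo-miR-21-3p, had 535, 470 and 649 in AA and 281, 349 and 340 in CTR, a rise of 0.76 (SE 0.17, adjusted p = 0.0222) that was lost without CTR-1, CTR-3 or AA-3 (0.0615 to 0.165) and without the block (0.0678). The main strand dre-miR-21 had a difference of -0.24 (SE 0.08, adjusted p = 0.156), and the 4 uncalled profiles of the family ranged from -0.24 to -0.02.

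miR-181 represses a Hox gene in differentiating mouse myoblasts. dre-miR-181a-3p had 2418, 2851 and 2586 normalised counts in AA and 1575, 1818 and 1874 in CTR. All 3 AA libraries were above all 3 CTR libraries, by 1.51-fold on average (log2 0.59, SE 0.09, adjusted p = 0.00156). The second called form, dre-miR-181a-5-3p, had 969, 1064 and 1044 in AA and 573, 722 and 825 in CTR, and its rise of 0.57 (SE 0.11, adjusted p = 0.0127) was lost without CTR-1, CTR-2 or AA-1 (0.0659 to 0.102) and without the block (0.0678). That call was also lost with near-identical entries merged, where the fold was under 0.55. The abundant strand dre-miR-181a-5p had a difference of 0.12, and the uncalled profiles of the family ran from -0.29 to 0.62 with a median of 0.16. Of these 18 uncalled profiles, 15 had a positive and 3 a negative difference. The 8 3p profiles, with the called ones, had a median of 0.29 and the 7 5p profiles one of 0.12. The summed counts had a difference of 0.24 (SE 0.10, adjusted p = 0.124), which was not called.

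miR-26a represses the chromatin enzyme Ezh2 during myogenesis in mouse. dre-miR-26a-3p had 586, 619 and 632 normalised counts in AA and 421, 407 and 438 in CTR, which is a small difference with little spread. The rise of 0.55 (SE 0.11, adjusted p = 0.0122) lay at the fold threshold. The call was lost without CTR-1, CTR-2, AA-2 or AA-3 (0.0242 to 0.0846, with the fold under 0.55 where p passed). It was also lost by DESeq2, with all entries fitted and with near-identical entries merged, each time with the fold under 0.55. The other 26 profiles of miR-26 ranged from -0.26 to 0.15, with a median of -0.11. The 3 3p profiles, with the called one, had a median of 0.12 and the 6 5p profiles one of -0.11.

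let-7, which times the exit from proliferation in animals from worms to vertebrates, had 108 profiles and 1 call. That share of 0.926% is below the 1.81% called over all profiles outside the muscle-specific families. gmo-let-7a-3-3p had 313, 329 and 294 normalised counts in AA and 222.8, 198 and 180 in CTR, with no overlap and a rise of 0.65 (SE 0.13, adjusted p = 0.0103). The call was lost without CTR-1, CTR-2 or AA-3 (0.0587 to 0.0835) and without the block (0.0987). dre-let-7c-3p had 343, 403 and 343 in AA and 250, 285 and 251 in CTR, a difference of 0.48 that was not called (adjusted p = 0.0607). The 18 3p profiles of let-7 had a median of 0.19 and the 22 5p profiles one of -0.02.

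**Figure D3:**
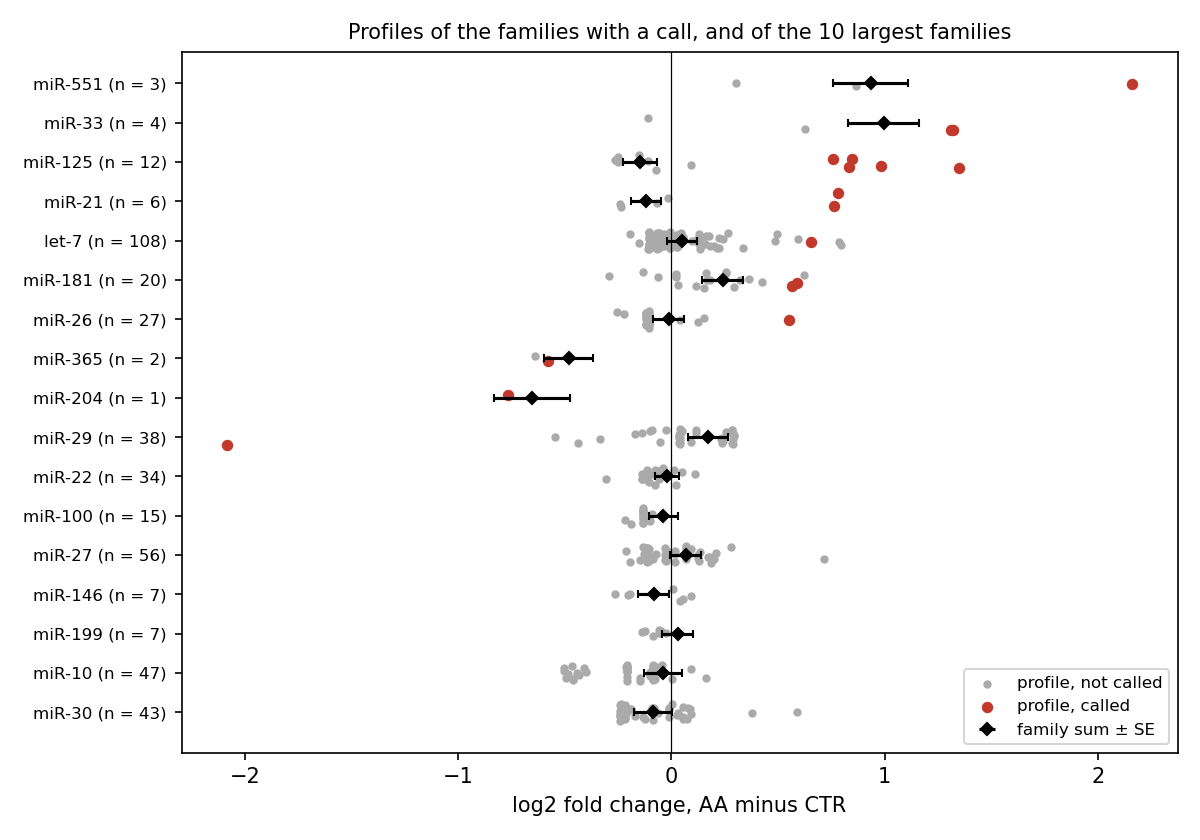
Log2 fold change of AA over CTR (horizontal axis) for every tested profile of the 10 families with a call outside the muscle-specific ones and of the 7 further families among the 10 most abundant. Red points are called profiles, grey points are uncalled ones and black diamonds with bars are the summed counts of the family ± SE, and in miR-125, miR-21 and miR-26 the red points lie above 0 while the family sum lies close to it.

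Another group was lower in AA. miR-29 represses collagens and other matrix genes in mammals. Its called profile ipu-miR-29b had 8.82, 7.496 and 4.33 normalised counts in AA, against 28.8, 36.8 and 28.8 in CTR. The groups were far apart, but the mean count over 9 libraries was only 15.1. The change was -2.09 (SE 0.40, adjusted p = 0.0103), and it was lost without CTR-1, CTR-2 or AA-3 (0.0596 to 0.0660). Of the other 37 miR-29 profiles, 28 had a positive and 9 a negative difference, from -0.55 to 0.29, and the summed counts differed by 0.17 (adjusted p = 0.291). The fall was thus called for 1 rare entry and not for the family.

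miR-204, which in mammals lies in an intron of TRPM3, was measured by a single profile. dre-miR-204-5p had 136, 67.5 and 76.9 normalised counts in AA and 213, 142.8 and 122.4 in CTR. The groups overlap, since AA-1 lies above CTR-3, but AA was the lower library in each numbered pair. The change was -0.77 (SE 0.16, adjusted p = 0.0142), and it was lost without CTR-2 (0.135) and without the block (0.790).

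miR-365, which sits beside miR-193b in mammals, was the most abundant of the called miRNAs outside the muscle-specific families. dre-miR-365 had 5130, 8511 and 7652 normalised counts in AA and 9017, 13138 and 9532 in CTR. The AA libraries were all below the CTR libraries, with AA-1 the lowest. The change was -0.58 (SE 0.12, adjusted p = 0.0146), close to the threshold, and it was lost without CTR-1, CTR-2, AA-1, AA-3 or IGF1-3 (0.0150 to 0.208, with the fold under 0.55 where p passed) and without the block (0.385). The call was also lost with upper-quartile factors and with no composition factors, where the fold was under 0.55. The summed counts of miR-365, nearly all from dre-miR-365, had a difference of -0.48 (SE 0.11, adjusted p = 0.00298). That sum was not called, since it fell short of the fold threshold. The 5p strand gmo-miR-365-5p had a difference of -0.64 that was not called (adjusted p = 0.298).

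The strands can be compared within each library, which removes the library's depth. A hairpin in these ratios is a 5p profile and a 3p profile paired by the names of their entries. A merged profile can be shared by several hairpins. Whether a ratio with a shared profile changed between strands or between hairpins was not tested. The log2 ratio of 5p to 3p counts was formed for 136 hairpins of 57 families and compared by limma with the same block. Of these, 16 ratios passed an adjusted p of 0.05 (11.8%), with the 3p strand gaining in 12 (8.82%) and the 5p strand in 4 (2.94%). Outside the muscle-specific families 13 ratios were called, and in 11 of them the strand with fewer counts gained in AA. Of the 13, 4 are let-7c and let-7d hairpins that share the 3p profile dre-let-7c-3p, so they are not separate observations. Over all 132 hairpins outside the muscle-specific families, the strand with fewer counts had the higher change in 86 and the lower in 46, with a median difference of 0.10. The median was 0.12 over the 83 hairpins whose strands differed at least 10-fold in counts, and 0.06 over the other 49. Changes over all profiles also varied with abundance, with a median of 0.11 at mean counts of 10 to 100 and of -0.09 among the most abundant profiles, and the part of this trend in the strand ratios was not tested.

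**Figure D4:**
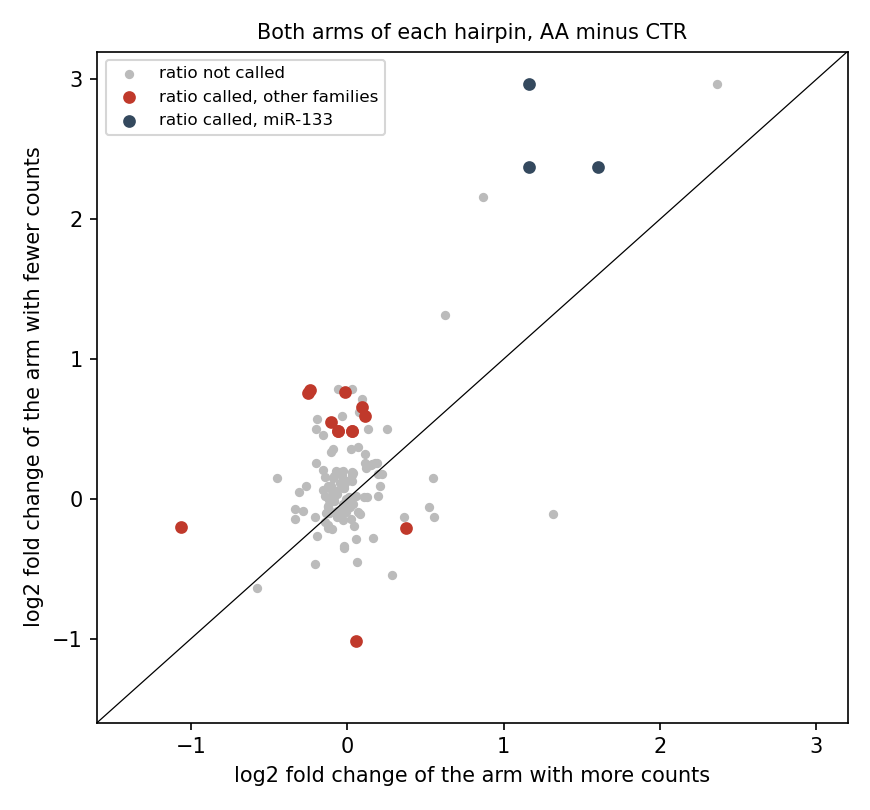
Log2 fold change, AA over CTR, of the strand with fewer counts (vertical axis) against that of the strand with more counts (horizontal axis) for 136 hairpins, with the diagonal marking equal change. Most called ratios of families other than miR-133 lie above the diagonal with the abundant strand near 0.

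The hairpin ssa-miR-125a gave the smallest adjusted p. Its log2 ratio of 5p to 3p, with dre-miR-125b-5p as the 5p profile, was 8.63, 8.80 and 8.80 in AA and 9.91, 9.83 and 9.50 in CTR. The 3p profile thus gained on this 5p profile in every AA library, by 1.00 on the log2 scale (SE 0.13, adjusted p = 0.00104). It made up only 0.161% of the counts of the pair. The 5p profile is named for miR-125b, so this is not the 3p share of the miR-125a hairpin alone. ssa-miR-21b had ratios of 11.7, 12.5 and 12.0 in AA and 13.4, 13.1 and 12.8 in CTR, a change of -1.02 (SE 0.18, adjusted p = 0.00228). In dre-miR-26a the ratios were nearly the same within each group, at 7.91, 7.96 and 7.87 in AA and 8.57, 8.54 and 8.60 in CTR, a change of -0.66 (SE 0.10, adjusted p = 0.00132).

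dre-miR-181a had ratios of 3.44, 3.51 and 3.23 in AA and 3.94, 3.92 and 3.75 in CTR, a change of -0.48 (SE 0.09, adjusted p = 0.00389). Its 3p profile held 7.75% of the counts of the pair. These 4 hairpins and dre-miR-30e kept their calls in every alternative run on them. gmo-miR-21 changed by -0.79 (adjusted p = 0.0134), lost without CTR-1 or CTR-3 (0.0781 to 0.0797). ola-let-7a changed by -0.56 (0.0189) and dre-let-7d by -0.54 (0.0134), both lost without CTR-1, CTR-3 or AA-3, and ola-let-7a also without CTR-2 or AA-2 (0.0631 to 0.0900 for ola-let-7a, 0.0660 to 0.0772 for dre-let-7d). The let-7c ratios, at -0.46 (0.0436), were lost when any library but IGF1-1 was left out (0.0523 to 0.211) and without the block (0.0746).

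In 2 of the called hairpins, dre-miR-30e and dre-miR-24b, the strand with fewer counts lost against the other in AA. dre-miR-30e, whose strands are close to equal, had ratios of 0.60, 0.47 and 0.73 in AA and -0.05, -0.02 and 0.12 in CTR. The 5p strand gained by 0.58 (SE 0.09, adjusted p = 0.00132), with dre-miR-30e-5p 0.38 higher and its 3p strand at -0.21. dre-miR-24b had ratios of -2.97, -4.37 and -4.73 in AA and -2.48, -3.09 and -2.96 in CTR. AA-1 lies within the CTR range there, and the change of -1.18 (SE 0.25, adjusted p = 0.00810) was lost without CTR-3 (0.0875). Its 5p strand, dre-miR-24b-5p, had 658, 244 and 192 normalised counts in AA and 738, 733 and 615 in CTR, so AA-2 and AA-3 were low and AA-1 was not. That strand was not called on its own (-1.02, adjusted p = 0.0978). In ola-miR-24b, by contrast, it was the strand with fewer counts, the 3p strand, that gained. Its ratio changed by -0.94 (0.0253), and this was lost without any of the CTR libraries, AA-2, AA-3 or IGF1-2 (0.0544 to 0.127) and without the block (0.164).

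**Figure D5:**
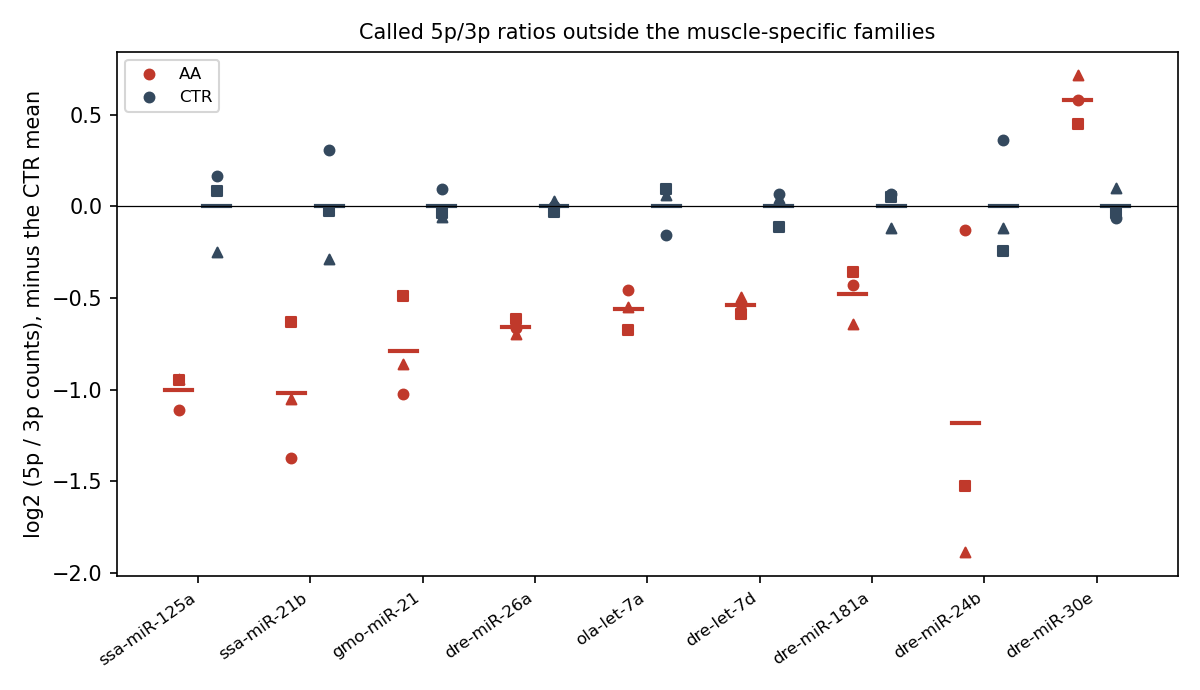
Log2 ratio of 5p to 3p counts minus the CTR mean of the same hairpin (vertical axis) for 9 called hairpins outside the muscle-specific families, AA left of CTR, with marker shapes for the replicate number and bars for means. The AA mean lies below the CTR mean in 8 of the 9 and above it in dre-miR-30e, and AA-1 stands apart from the other AA libraries in dre-miR-24b.

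The summed counts of the families that make up most of the miRNA population were not called. Of the 10 families with the most counts (miR-21, miR-22, miR-100, let-7, miR-27, miR-26, miR-146, miR-199, miR-10 and miR-30), none had a called sum, and the sums differed by -0.12 to 0.07 on the log2 scale. Among zebrafish entries miR-21 took 52.2% ± 3.43 of the counts in AA and 54.4% ± 1.03 in CTR (SD, n = 3 each). miR-22, which in mouse is enriched in heart and skeletal muscle, took 12.1% ± 0.448 in AA and 11.6% ± 1.17 in CTR. These shares differ by less than the larger of the spreads.

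miR-146, a target of NF-kB that feeds back on inflammatory signalling in mammals, took 6.55% ± 0.481 of zebrafish counts in AA and 6.65% ± 0.520 in CTR, and its most abundant profile ola-miR-146a-5p had a difference of -0.20 (adjusted p = 0.107). miR-199, a miRNA of mesenchymal cells, took 6.16% ± 0.960 in AA and 5.79% ± 0.326 in CTR. miR-27, which represses Pax3 in mouse muscle progenitors, took 2.66% ± 0.188 in AA and 2.41% ± 0.289 in CTR. None of these shares lay outside the spread of its libraries. None of the 15 profiles of miR-100, which targets the TOR kinase in mammals, was called. They are mostly near-copies, with -0.13 for the most abundant, abu-miR-100, and the zebrafish share of miR-100 was 2.94% ± 0.127 in AA and 2.875% ± 0.333 in CTR. In miR-10, a resident of the Hox clusters, the most abundant profile dre-miR-10b-5p had a difference of -0.10.

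Groups of families with a known role are given by their counts, beside 1.81% called and a median of -0.02 over all profiles outside the muscle-specific families. Of 190 profiles of 8 further families known from myogenesis, 3 were higher and 1 was lower in AA (2.11%), with a median of -0.02. The 58 profiles of families tied to sterol, lipid and insulin metabolism had 2 calls (3.45%), both miR-33 with nearly the same counts, and a median of 0.10. The 15 profiles of inflammation-related families had 2 calls (13.3%), both 3p forms of miR-21, and a median of 0.01. No profile was called among 59 of the miR-17-92 cluster and its paralogs (median 0.07), 34 of miR-15 and miR-16 (-0.20), 116 of miR-23, miR-24 and miR-27 (-0.02), 43 of miR-30 (-0.17) and 56 of miR-10 and miR-196 (-0.09). Their adjusted p values exceeded the threshold or their changes were under 0.55, which does not show that these families were equal in AA and CTR.

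Besides the families above, the summed counts of miR-122, a miRNA of liver in vertebrates, were 0.71 higher in AA (SE 0.17, adjusted p = 0.00380), 1 of 8 called sums among 121 (6.61%). dre-miR-122, its main profile, had 121, 211 and 154 normalised counts in AA and 59.5, 146.5 and 114 in CTR, groups that overlap, and was not called (0.67, adjusted p = 0.0863). The call on the sum was lost without CTR-1, AA-1 or AA-3 (0.0583 to 0.190), without the block (0.865) and with DESeq2-type size factors (0.0503). dre-miR-338-5p, from a miRNA that in mammals lies within the Aatk gene, had 136.7, 214.2 and 178 in AA and 105, 114 and 118 in CTR. Its libraries did not overlap, but the difference of 0.65 (SE 0.17) had an adjusted p of 0.0720. It was called in 8 of 20 alternatives, 7 of the 11 that changed the processing and 1 of the 9 that left out a library, the one without IGF1-2.

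The muscle-specific families had the largest responses, and 14 of their 15 profiles were called, all higher in AA. dre-miR-206-3p averaged 13995 ± 3502 normalised counts in AA and 2749 ± 761 in CTR (SD, n = 3 each), a log2 change of 2.37 (SE 0.09, adjusted p = 1.6e-08). The changes were 2.05 for dre-miR-499-5p (SE 0.19), a miRNA encoded in a slow myosin gene, 1.88 for dre-miR-133b-3p (SE 0.15) and 1.17 for dre-miR-1 (SE 0.09). All 4 passed in each of the alternatives. The single uncalled profile was ipu-miR-499 (0.83, adjusted p = 0.0607). For comparison, ssa-miR-551-5p was the only profile outside these families with a rise above 2 on the log2 scale, and ipu-miR-29b had a change of -2.09. The median change of the 15 muscle-specific profiles was 2.05.

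The 17 profiles called outside the muscle-specific families were also set beside the IGF1 libraries, in which myotubes received a growth signal without amino acids. Of the 17, 5 differed between AA and IGF1 by the same thresholds, against 3.88% of all profiles. Both comparisons share the AA libraries, which chose the 17, so this count is a description. These were ssa-miR-551-5p, with 26.6, 22.13 and 14.1 normalised counts in IGF1 (AA over IGF1 1.25, adjusted p = 0.0140), dre-miR-125b-2-3p (1.19, 0.0222), ssa-miR-125a-3p (0.59, 0.0212), ssa-miR-125a-2-3p (0.56, 0.0255) and dre-miR-204-5p (-0.98, 0.00269). None of the 5 passed without the block, and the count was 1 without AA-1, 1 without IGF1-3, 3 without CTR-2 and 3 without AA-3. For the other profiles the difference was not called. Among them were the 2 remaining calls of miR-125, dre-miR-125b-1-3p (0.06, adjusted p = 0.855) and its near-copy mze-miR-125c (0.02, 0.959). Both were also called higher in IGF1 than in CTR, by 0.78 (adjusted p = 0.0299) and 0.83 (0.0238). The miR-125 calls thus did not all set AA apart from IGF1. That of dre-miR-365 was -0.53 (adjusted p = 0.0212), short of the fold threshold alone, that of dre-miR-26a-3p was 0.37 (0.0495), and those of abu-miR-33-5p and gmo-miR-33b-5p were 0.56 (0.147) and 0.60 (0.115). dre-miR-181a-3p had 2459, 2727 and 2547 normalised counts in IGF1, within the range of the AA libraries, with a difference of 0.06 (adjusted p = 0.684), and gmo-let-7a-3-3p had 387, 306 and 290 in IGF1 (-0.02, adjusted p = 0.927). ipu-miR-29b had 3.12, 14.1 and 5.89 in IGF1, all below the CTR libraries. Between IGF1 and CTR, ipu-miR-29b (-2.10, adjusted p = 0.0140) and gmo-let-7a-3-3p (0.68, 0.0123) were called too. dre-miR-181a-3p was 0.53 higher in IGF1 than in CTR (0.00704), short of the fold threshold alone.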

How the data were processed

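Small RNA was extracted with TRIzol, made into TruSeq small RNA libraries and sequenced on an Illumina HiSeq. Per the labels and methods, the authors checked reads with FastQC 0.11.8, trimmed them with Trimmomatic and aligned them with Bowtie2 to mature miRNAs of 13 teleost species. The handling of reads that match more than one entry was not stated there, but entries of different species held the same counts, so a total over entries exceeds the reads and levels of near-identical entries are uncertain. The deposited counts are raw counts per entry. The second deposited table, a signal of counts divided by DESeq2 size factors by the authors, held the 1769 entries with a mean count of at least 10 and gave the normalised counts printed. Per-library size factors ran from 0.695 to 1.36.

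From the counts, entries with equal counts in all 9 libraries were merged, and 953 profiles were tested with edgeR 4.0.16 (quasi-likelihood, TMM, group and replicate number as terms, all 9 libraries, R 4.3.3). A call needs an adjusted p (Benjamini-Hochberg) of 0.05 or less and an absolute log2 change of at least 0.55. Family sums were tested likewise, with a spread largely shared across families, and strand ratios (pseudocount 0.5) with limma 3.58.1, by adjusted p alone. Near-identical profiles were not merged in the sums, so each of them entered. Profiles under the count minimum entered the sums too, and the 121 families whose sum had a mean of at least 10 were tested. DESeq2 1.42.0, other scalings, count minimums, zebrafish entries alone, merged near-identical entries and leaving out each library were the alternatives. The labels do not say what the replicate number marks. Deviations of libraries from their group means correlated positively at equal numbers (9 pairs, r = 0.287 to 0.566), against -0.484 to 0.15 in 18 other pairs. The deviations of a group sum to 0, so a positive r at equal numbers pushes the others down. The 18 values are therefore not a separate contrast. The block was fixed by the definition of the comparison, not by these correlations. The profiles named are those called outside the muscle-specific families, the most abundant profile of each muscle-specific family, the called strand ratios and the 10 largest families, with close misses chosen after their values were seen. The families and lists described were chosen with earlier results of these data known. The test was tried on simulated data with known changes, drawn independently for each profile and without a replicate effect. That trial therefore says nothing about the block or about near-identical profiles. Sequences and coordinates were not used here.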

Additional observations from a re-analysis of the deposited data

How the results depend on the processing

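No called value among the 60 named profiles, sums and ratios changed direction under any alternative. The direction of the other called profiles was not followed. Uncalled family sums near 0 did change sign: those of let-7 (-0.06 to 0.11), miR-199 (-0.08 to 0.06), miR-27 (-0.07 to 0.15), miR-30 (-0.25 to 0.03), miR-10 (-0.22 to 0.0041), miR-21 (-0.23 to 0.0018) and miR-26 (-0.12 to 0.04). Of 951 values of 60 named profiles, sums and ratios under the alternatives, 825 stayed on their side of the threshold, 114 lost a call and 12 gained one. The 31 called profiles became 48 with upper-quartile factors and 18 among zebrafish entries alone, and 19 to 41 when 1 library was left out (19 without CTR-1, 20 without CTR-2). Outside the muscle-specific families, the 17 calls became 9 without the replicate block, 33 with upper-quartile factors, 28 without composition factors and 10 among zebrafish entries, and 5 to 26 with 1 library left out. With near-identical entries merged, 608 groups remained and 35 were called. Of these, 20 lay outside the muscle-specific families, 15 higher and 5 lower in AA. The median change over all profiles moved from -0.02 to 0.04 with upper-quartile factors and to 0.10 with no composition factors. The 8 called family sums became 3 without the replicate block, and 7 to 11 with 1 library left out. The 16 called strand ratios became 8 among the 40 zebrafish hairpins and 12 without the block, and 8 to 17 with 1 library left out, 8 without CTR-1 or CTR-3 and 9 without AA-3. Of the profiles that also differed between AA and IGF1, 0 rather than 5 passed without the replicate block, 3 at a mean count of at least 50, 2 among zebrafish entries, and 1 to 6 with 1 library left out. The cause of these shifts was not tested. Mean counts under 100 lie behind ssa-miR-551-5p, miR-33-5p, dre-miR-125b-2-3p and ipu-miR-29b.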
